A study of Danio rerio with 6 samples.

Results

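The transcripts of 4 genes, nanos3, dazl, dnd and vasa, were followed in RNA recovered with the Tudor domain protein Tdrd6a from zebrafish (Danio rerio) zygotes and in the input RNA of zygotes. They were taken by their symbols and form 4 of the 21051 genes in the table. RNA immunoprecipitation and sequencing (RIP-seq) gave 3 libraries of the Tdrd6a immunoprecipitate (IP) and 3 of the input. The labels of all 6 samples name zygotes, of fish kept under standard conditions, whereas the design text of the series mentions ovary tissue, and the sample labels were followed here. For both groups a strain, genotype, antibody, number of zygotes or hour of collection is not given in the sources used here. The labels do not say whether replicates were separate clutches, and the p-values therefore describe only the variation among these 6 libraries, which may be technical. No mock or unrelated precipitation was analysed here, so each enrichment is over input alone.

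Germ plasm is the maternal material, rich in RNA and protein, that marks the future primordial germ cells of the zebrafish embryo. The 4 genes encode RNA regulators of these cells. Nanos3 is a zinc finger protein of the Nanos family, whose members act with Pumilio proteins and recruit the CCR4-NOT deadenylase to repress target mRNAs. Dazl is an RNA-binding protein of the DAZ family that promotes translation of its targets. Dnd, Dead end, is an RNA-binding protein that protects the nanos3 and tdrd7 mRNAs from microRNA repression in zebrafish germ cells, and vasa, now also called ddx4, encodes a DEAD-box RNA helicase. Tdrd6a itself is a germ plasm protein with Tudor domains, which bind methylated arginines of partners such as Piwi proteins.

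The libraries held 4031863 to 22466764 reads in IP and 10481205 to 19804774 in input, and IP replicate 2 was the shallowest. Values are normalized counts, the reads of a gene divided by a size factor of its library. Of 14 names of egg and oocyte transcripts, 14 rows were tested and 13 were not called at limma adjusted p under 0.05. The other row, gdf9, a growth factor of the oocyte, was higher in IP (log2 fold change 2.11, limma adjusted p = 0.0184). Over all genes tested 4.46% were called higher and 1.86% lower, so 1 call in 14 rows is near the background. Blood markers summed to at most 2.1 normalized counts in any IP library and 3.4 in any input library, markers of zygotic transcription to at most 27.7 and 17.8, and muscle markers to at most 69.9 and 59.6. Of 7 follicle cell markers measured, cyp19a1a, lhcgr and inha were at 0 in all libraries, and cyp11a1 made up nearly the whole sum of 3237 to 5157 in IP and 2209 to 3075 in input. A library mixes the RNA of its whole sample, so fewer zygotes or granules with a transcript and less of it in each cannot be told apart.

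All 4 transcripts were higher in IP than in input, by 44.6- to 79.1-fold, and in none of them did the groups overlap. The whole table was tested with limma on log2(normalized count + 4), and a gene was called at a Benjamini-Hochberg adjusted p under 0.05 over the 13265 genes with a mean of at least 10 normalized counts. The 4 calls stand against 4.46% of all genes tested that were called higher in IP, and 1.86% were called lower. Every IP library exceeded every input library in 14.6% of genes. Over all genes 591 were higher and 247 lower, or 478 and 406 when scaled by library size only.

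The transcript of nanos3 (ENSDARG00000068255) had 43425, 120024 and 15901 normalized counts in IP replicates 1, 2 and 3, against 628, 523 and 499 in input replicates 1, 2 and 3. Even the lowest IP library thus held 25.3 times the value of the highest input library. The means were 59783 ± 53954 in IP and 550.1 ± 68.3 in input (SD, n = 3 each), and the log2 fold change was 6.31 ± 0.63 (SE, limma adjusted p = 0.00186), the third largest of all genes tested with limma. By the fold changes of edgeR or DESeq2 on recovered reads it ranked 8. The fold was 79.1 over all libraries, 47.7 without IP replicate 2 and 131 without IP replicate 3.

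The transcript of dazl (ENSDARG00000036214) had 180737, 337629 and 57386 normalized counts in IP and 2340.3, 2201 and 1696 in input. It drew the most reads of the 4 genes in every library, IP and input alike. Its IP mean was 191917 ± 140455 and its input mean 2079 ± 339 (SD, n = 3 each), with a log2 fold change of 6.20 ± 0.56 (SE, limma adjusted p = 0.000612). The fold of 73.6 became 119.7 without IP replicate 3. In IP this one gene took 1.16%, 2.23% and 0.490% of all reads in replicates 1, 2 and 3, against 0.0199%, 0.0187% and 0.0126% in input.

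The transcript of dnd (ENSDARG00000022813) drew the fewest reads of the 4, with 9752, 22649 and 6934 normalized counts in IP and 214, 198 and 136 in input. In reads this was 14032, 6024 and 5747 in IP against 191, 269 and 200 in input. The exact 95% Poisson interval of the library with its fewest reads, input replicate 1, ran from 165 to 220.1 reads. Such intervals cover counting error only, since the reads carry no molecular identifiers. Of the 4 genes its groups were the farthest apart, the lowest IP library holding 32.4 times the value of the highest input library. The log2 fold change was 5.97 ± 0.41 (SE, limma adjusted p = 0.000111).

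The transcript of vasa (ENSDARG00000014373) had 35980.3, 67823 and 10660.5 normalized counts in IP and 837, 609 and 565 in input. Of the 4 genes its groups lay closest together, the lowest IP library holding 12.7 times the value of the highest input library. The means were 38155 ± 28643 in IP and 671 ± 146 in input (SD, n = 3 each). The log2 fold change of 5.48 ± 0.59 (SE, limma adjusted p = 0.00207) was the smallest of the 4 and ranked 10 among all genes tested, against ranks 3, 4 and 6 for nanos3, dazl and dnd. By edgeR vasa ranked 18, dazl 10 and dnd 14, and by DESeq2 they ranked 19, 10 and 16. Its fold of 44.6 was 29.5 without IP replicate 2 and 74.3 without IP replicate 3.

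**Figure D1:**
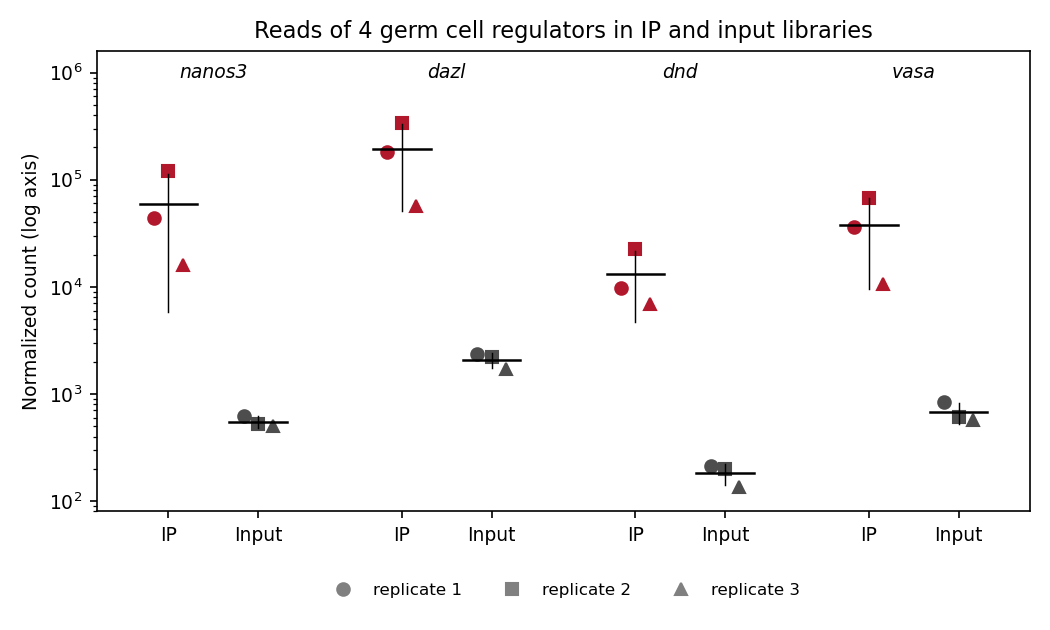
Normalized counts on a log axis of nanos3, dazl, dnd and vasa in the 3 Tdrd6a IP libraries (red, left of each pair) and the 3 input libraries (grey), with marker shape giving the replicate number, horizontal lines the means and vertical lines 1 SD. IP replicate 2 is the highest and IP replicate 3 the lowest IP library for each gene, and each lowest IP value is 12.7 (vasa) to 32.4 (dnd) times the highest input value of the same gene.

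The IP libraries differed from each other far more than the input libraries did. The highest IP library exceeded the lowest by 7.55-fold for nanos3, 5.88-fold for dazl, 3.27-fold for dnd and 6.36-fold for vasa, against 1.26-, 1.38-, 1.57- and 1.48-fold between input libraries. On the log2 scale the SD over IP libraries was 1.46, 1.30, 0.88 and 1.36 for nanos3, dazl, dnd and vasa, above those of 95.2%, 92.8%, 81.1% and 94.0% of all genes tested, whose median was 0.48. The same SD over input libraries was 0.17 to 0.34, below the median of 0.38 over all genes tested. The Poisson counting error of the reads was at most 7.24% of a value, for dnd in input, and covers no other noise. By comparison, the coefficient of variation over IP libraries was 63.9% to 90.2%.

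The 4 genes shared the order of the libraries. IP replicate 2 was the highest and IP replicate 3 the lowest for each of them, and input replicate 1 was the highest and input replicate 3 the lowest for each. Together they took 1.73%, 3.62% and 0.776% of all reads in IP replicates 1, 2 and 3, against 0.0342%, 0.0299% and 0.0215% in input replicates 1, 2 and 3. For each gene all 3 IP libraries had a higher share of all reads than any of the 3 input libraries (exact two-sided permutation p = 0.1, adjusted p = 0.1 over the 4 genes, the smallest that 3 libraries against 3 allow). The library with the highest shares, IP replicate 2, was also the one with the fewest reads, and the part of depth in this difference was not tested.

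Set over the mean of the input libraries on the log2(normalized count + 4) scale, the order of the 4 genes changed from one IP library to the next. In IP replicate 1 dazl was the most enriched, at 87.6-fold, followed by nanos3 at 78.8-fold, vasa at 54.1-fold and dnd at 53.2-fold. In IP replicate 2 nanos3 led at 217.7-fold, ahead of dazl at 163.6-fold, dnd at 123-fold and vasa at 102-fold. In IP replicate 3 dnd led at 37.8-fold, with nanos3 at 28.8-fold, dazl at 27.8-fold and vasa at 16.04-fold. A different gene thus came first in each IP library. The transcript of dnd had the smallest range of the 4, from 37.8- to 123-fold, and that of nanos3 the widest, from 28.8- to 217.7-fold. Over the input library of the same number, vasa was the lowest of the 4 in each pair, at 42.8-, 110.6- and 18.7-fold in pairs 1, 2 and 3. In pairs 1 and 2 dnd lay close to vasa, at 44.7- and 112.3-fold. The rank of vasa among all genes tested, by the ratio over the input mean, was 6, 10 and 24 in IP replicates 1, 2 and 3.

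**Figure D2:**
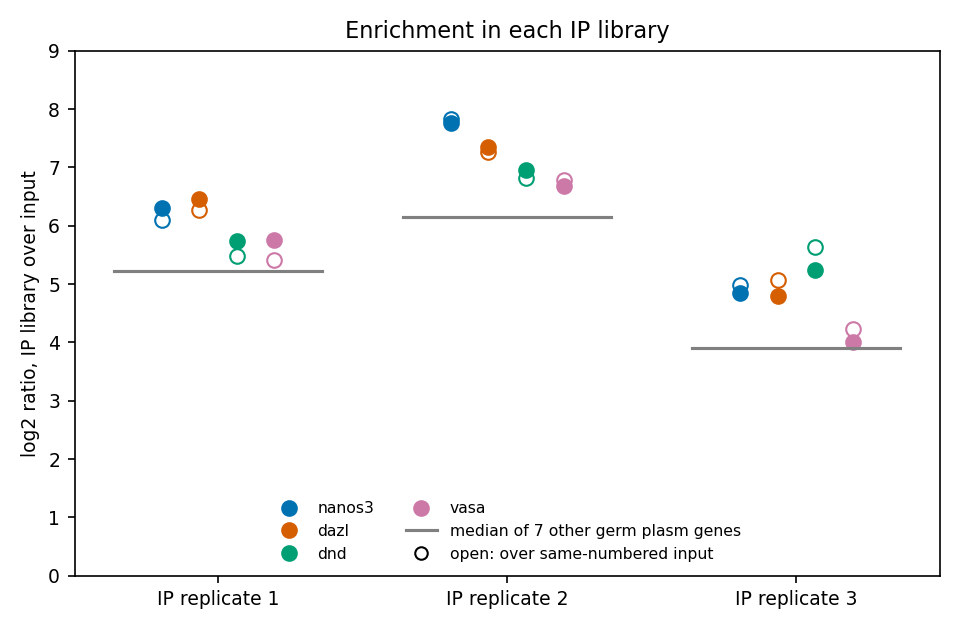
Log2 ratio of each Tdrd6a IP library over input for the 4 genes, with filled points over the mean of the 3 input libraries, open points over the input library of the same number, and grey lines for the median of 7 other germ plasm transcripts. All points lie between 4.004 and 7.83, highest in IP replicate 2, and dnd is the top point in IP replicate 3 but not in the other libraries.

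Differences in enrichment between the 4 genes were small beside the enrichment itself. They were compared over 6 pairs of genes through the log2 ratio of both genes within each library, which does not depend on scaling between libraries apart from the pseudocount. The log2 ratio of dazl over vasa was 2.33, 2.32 and 2.43 in IP replicates 1, 2 and 3, against 1.48, 1.85 and 1.58 in input replicates 1, 2 and 3. The groups did not overlap, and the estimated enrichment of dazl was 1.65-fold that of vasa. The difference was 0.72 on the log2 scale (two-sided exact permutation p = 0.1, adjusted p = 0.3 over the 6 pairs).

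The ratio of nanos3 over vasa also separated the groups, with log2 values of 0.27, 0.82 and 0.58 in IP against -0.41, -0.22 and -0.18 in input. The reads of nanos3 thus exceeded those of vasa in every IP library and fell short of them in every input library. The difference was 0.83 on the log2 scale, an estimated 1.77-fold larger enrichment of nanos3 (two-sided exact permutation p = 0.1, adjusted p = 0.3 over the 6 pairs). Both separated pairs contain vasa, so they are not independent of each other. In the other 4 pairs the groups overlapped when same-numbered libraries were not paired. The difference was 0.50 for dnd over vasa, 0.33 for nanos3 over dnd, 0.23 for dazl over dnd and 0.10 for nanos3 over dazl, with exact permutation p of 0.2, 0.5, 0.6 and 0.6. With 3 libraries against 3 no p can go below 0.1, so none of the 6 gene pairs could pass the threshold. These tests thus show neither that the genes were enriched alike nor that they were enriched to different degrees.

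Taken as pairs of the same number, IP minus input differed by 0.06, 0.022 and 1.40 for dnd over vasa in numbers 1, 2 and 3, by 0.85, 0.47 and 0.85 for dazl over vasa and by 0.68, 1.04 and 0.75 for nanos3 over vasa. All 3 of these ratios were thus higher in IP in each of the 3 pairs (paired exact permutation p = 0.25 for each, the smallest that 3 pairs allow). For dnd over vasa, however, the differences in numbers 1 and 2 were near 0, and only number 3 stood clear of it. The remaining gene pairs changed sign between numbers. In numbers 1, 2 and 3 the difference was -0.17, 0.57 and -0.09 for nanos3 over dazl. It was 0.62, 1.02 and -0.64 for nanos3 over dnd and 0.79, 0.45 and -0.55 for dazl over dnd (paired exact permutation p = 0.75 for both).

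Over the IP libraries, the ratios of dnd to the other genes varied most. The log2 ratio of dnd over vasa was -1.88, -1.58 and -0.62 in IP replicates 1, 2 and 3, against -1.95, -1.60 and -2.02 in input replicates 1, 2 and 3. IP replicate 3 stood apart and the other IP libraries lay within or near the input range. Without IP replicate 3 the difference between groups was 0.12. By contrast the SD of the dazl over vasa ratio was 0.06 over IP libraries, against 0.66 for dnd over vasa. Over the input libraries the ratios with dnd were mixed. That of dazl over dnd had the smallest SD of the 6, at 0.09. Those of nanos3 over dnd and dnd over vasa had the largest, at 0.23 and 0.22.

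As shares of the summed reads of the 4 genes, vasa was lower in IP and the ranges of the other 3 genes overlapped between IP and input. These are shares of reads and not of molecules, since a longer transcript gives more reads and no transcript lengths were used here. The 4 genes together had 388350, 145786 and 75328 reads in IP replicates 1, 2 and 3, against 3586, 4804 and 4249 in input. The share of vasa was 13.3%, 12.4% and 11.7% in IP, against 20.8%, 17.3% and 19.5% in input, so it was lower in every IP library. It averaged 12.5% ± 0.81 in IP and 19.2% ± 1.81 in input (SD, n = 3 each, two-sided exact permutation p = 0.1, adjusted p = 0.267 over the 4 genes).

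The share of dazl was 67.0%, 61.6% and 63.1% in IP, against 58.2%, 62.3% and 58.6% in input, and IP replicate 2 lay inside the input range. The share of nanos3 was 16.1%, 21.9% and 17.5% in IP, against 15.6%, 14.8% and 17.2% in input, and IP replicate 1 lay inside the input range. Both averaged higher in IP, by 4.201 and 2.61 percentage points (two-sided exact permutation p = 0.2 for each). The share of dnd was 3.61%, 4.13% and 7.63% in IP, against 5.33%, 5.60% and 4.71% in input, with IP libraries on both sides of the input range. Its means were 5.12% ± 2.18 in IP and 5.21% ± 0.457 in input (SD, n = 3 each, two-sided exact permutation p = 1).

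**Figure D3:**
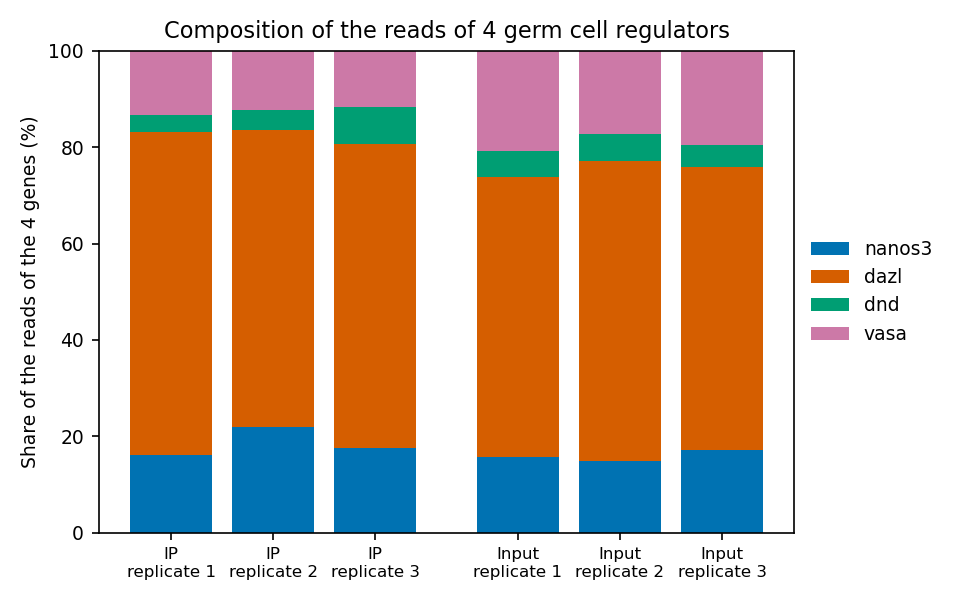
Stacked bars of the share of each gene, in percent, in the summed reads of nanos3, dazl, dnd and vasa for each IP library (left) and input library (right). The top segment, vasa, is 11.7% to 13.3% in IP and 17.3% to 20.8% in input, while dazl takes 58.2% to 67.0% of the reads in all 6 libraries.

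Among other germ plasm transcripts, 9 names were considered and 7 were measured, and all 7 were called higher in IP, at a median of 5.22 for the log2 fold change. The median over all genes tested was -0.0081, and that of the 4 regulators was 6.09. The 7 were ca15b (6.402), rgs14a (5.52), tdrd7 (5.26), which encodes a Tudor domain protein of germ granules, hook2 (5.22), gra (4.76), celf1 (4.61), which encodes an RNA-binding protein, and camk2g1 (3.76). These calls repeat a pattern of the same libraries already known when the names were chosen, and rgs14a was not called without input replicate 3 (limma adjusted p = 0.0556).

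Each of the 4 regulators was enriched above the median of these 7 in each IP library. Not every one of the 7 lay below them. Over all libraries the log2 fold change of ca15b (6.402) exceeded those of all 4, and that of rgs14a (5.52) exceeded that of vasa (5.48). The excess on the log2 scale was 1.07, 1.61 and 0.95 for nanos3 in IP replicates 1, 2 and 3. It was 1.22, 1.198 and 0.90 for dazl, 0.50, 0.79 and 1.34 for dnd, and 0.53, 0.52 and 0.10 for vasa. The median of the 7 transcripts followed the same order of IP libraries, at 37.5-, 71.3- and 14.9-fold over the input mean in replicates 1, 2 and 3. The transcript of camk2g1 departed from this order, with 10540.0, 10196.5 and 4412 normalized counts in IP replicates 1, 2 and 3. That of gra kept the order, at 8018, 8768 and 3430.0, though its replicates 1 and 2 lay close together. Measured against that median, the SD over IP libraries was 0.35, 0.18, 0.43 and 0.24 for nanos3, dazl, dnd and vasa, against 1.46, 1.30, 0.88 and 1.36 without it. Input did not share this order, since input replicate 3, the lowest input library for all 4 regulators, had the highest median of the 7.

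Likeness of pattern was measured as the root mean square difference, over the 6 libraries, of log2(normalized count + 4) less the input mean of each gene, among 7404 other named genes with a mean of at least 50 normalized counts. Nearest to the mean of the 4 were ca15b (0.49), rgs14a (0.56), tdrd7 (0.58), hook2 (0.61) and akap9 (0.62). The first 4 belong to the germ plasm names above, and akap9 encodes a scaffold protein of the centrosome and Golgi. The measure includes the size of the enrichment, so only strongly enriched genes could lie near. Since the germ plasm names were chosen with earlier results of these data known, their place here is not independent support. For nanos3 and dazl the nearest gene was ca15b, at 0.47 and 0.46, although nanos3 and dazl lay nearer to each other, at 0.20. For vasa it was tdrd7, at 0.34, nearer than any of the other 3 regulators, of which dazl was closest at 0.52. For dnd it was akap9, at 0.47, while dazl lay at 0.39. In IP replicates 1, 2 and 3 akap9 had 10042, 36342 and 11961 normalized counts, against 210, 426 and 298 in input, so its IP replicate 3 was not its lowest.

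Of the names of relatives of the 4 proteins 8 were measured and 6 tested, and these 6 were relatives of Vasa and Dnd only. No relative of Nanos3 or Dazl was tested, and the names nanos2 and boll were not matched to a row. Limma called 0 of the 6 tested, against 4.46% higher and 1.86% lower among all genes tested. A count of 0 in 6 is near the background. At an unadjusted p under 0.05 limma had 1 (hnrnpr, on the lower side), and edgeR and DESeq2 each had 2 (syncripl and hnrnpr, both lower). After adjustment edgeR and DESeq2 called 0 as well. The median log2 fold change of the 6 was 0.00035, against 6.09 for the 4 regulators. The row matched to nanos1, a relative of nanos3, had 0 reads in all 6 libraries, which allows up to 3 reads in each. The helicase genes most like vasa in the list, pl10 (ddx3xb) and ddx3 (ddx3xa), had estimates of -0.0043 ± 0.31 and 0.31 ± 0.26 (SE, limma adjusted p = 0.996 and 0.553).

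The transcript of pl10 had 6636, 7384 and 4006 normalized counts in IP, against 7004, 4999 and 5657 in input, and these ranges overlapped. Among genes of RNA-binding proteins related to Dnd, the estimates were 0.07 for rbm46, 0.0050 for syncrip, -0.78 for syncripl and -0.97 for hnrnpr. None of these was called, with limma adjusted p of 0.958, 0.996, 0.304 and 0.150, and the estimates of pl10, rbm46 and syncrip changed sign between scalings, tests or left-out libraries. The row matched to rbm47 had 8.3, 7.5 and 4.8 normalized counts in IP replicates 1, 2 and 3, against 0, 0 and 0.7 in input. It had at most 12 reads in a library, fell below the abundance minimum and was not tested.

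Partners of Nanos and Dazl were followed as well. Of 15 Pumilio and CCR4-NOT genes tested, 3 were called higher, 0 lower and 12 not called, against 4.46% higher and 1.86% lower among all genes tested, with 1 lower at an unadjusted p under 0.05 (cnot3b), and the median of the log2 fold changes was -0.35. The 3 were the deadenylase genes cnot7 (1.81 ± 0.35 SE, limma adjusted p = 0.0148), cnot8 (1.25 ± 0.32, adjusted p = 0.0439) and cnot6 (1.098 ± 0.27, adjusted p = 0.0365). In IP replicates 1, 2 and 3 cnot7 had 2896, 1963 and 1082 normalized counts, against 593, 439 and 538 in input, and unlike the 4 regulators it was not highest in IP replicate 2. The call of cnot6 was lost with the replicate block (adjusted p = 0.0699), with edgeR (0.0615) and with either other scaling. That of cnot8 was lost with edgeR (0.0509), with either other scaling and without the abundance minimum (0.0909). The omission of a single input library, whichever it was, removed all 3 calls. Without input replicates 1, 2 and 3 the genes called higher over the whole table also fell, from 591 to 176, 241 and 191. The estimate of cnot7 was then 1.91, 1.69 and 1.84. Without IP replicate 1 cnot7 (0.0558) and cnot8 (0.133) were lost, and without IP replicate 3 cnot8 (0.0548).

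The scaffold gene of the complex, cnot1, was at 0.87 (limma adjusted p = 0.0694) and was called with DESeq2 (adjusted p = 0.0134) and without IP replicate 2 (limma adjusted p = 0.0370), and the subunit gene cnot3b was at -0.94 (adjusted p = 0.107). Not all deadenylase genes of the list rose: cnot6l was at -0.82 (adjusted p = 0.238), and the row matched to cnot6b, named after its values were seen, was at -0.0060 (adjusted p = 0.995). Of 6 genes of Dazl partners, among them poly(A)-binding proteins, limma called 0. Among all genes tested 4.46% were called higher and 1.86% lower, so a count of 0 in 6 is near the background. Their estimates ran from -1.07 to 0.56, with 0 at an unadjusted limma p under 0.05 and 0 called by edgeR or DESeq2.

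**Figure D4:**
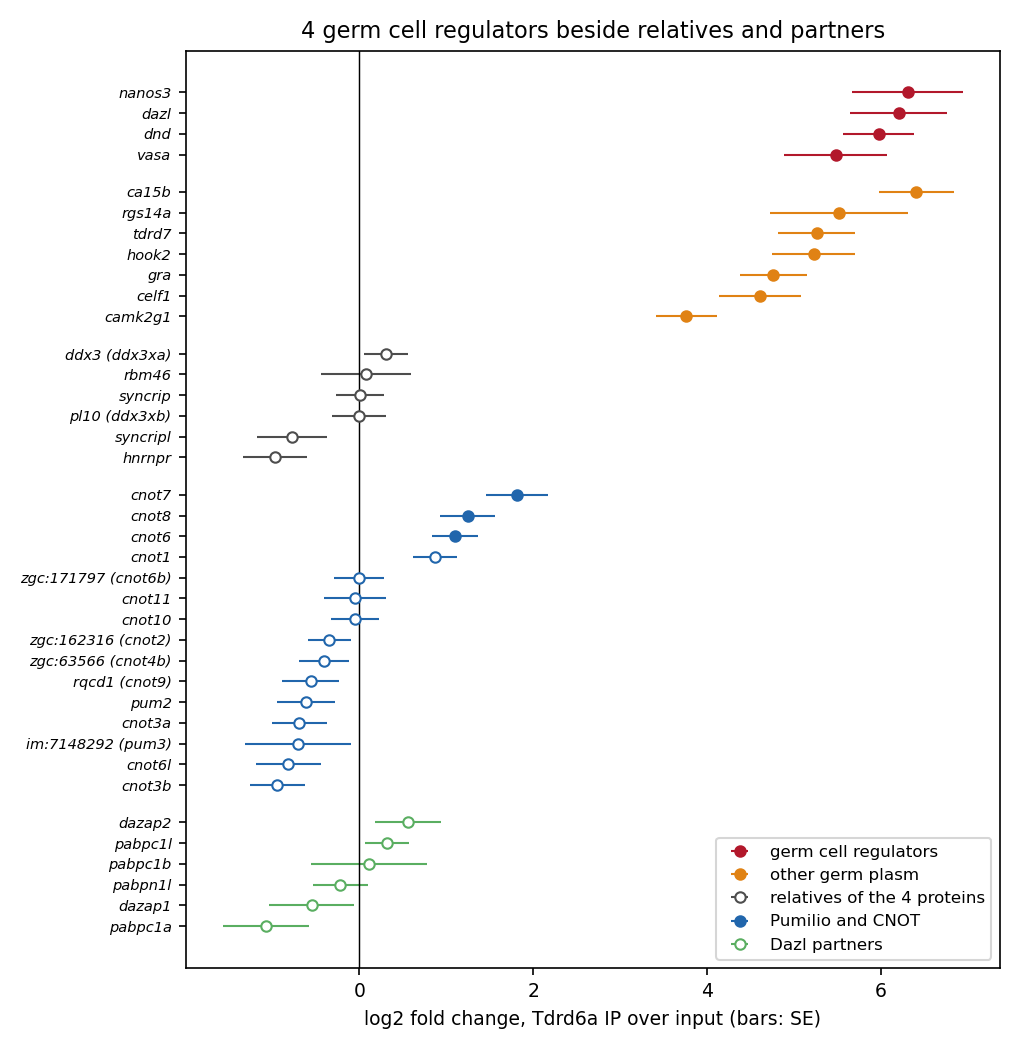
Log2 fold change of Tdrd6a IP over input with its SE for the 4 regulators, 7 other germ plasm transcripts, 6 relatives of Vasa and Dnd, 15 Pumilio and CCR4-NOT genes and 6 Dazl partner genes. Filled points were called at an adjusted p under 0.05. The regulators lie at 5.48 to 6.31 and the other germ plasm transcripts at 3.76 to 6.402, while relatives and partners lie between -1.07 and 1.81.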

How the data were processed

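After Trizol extraction and NuGEN Ovation library preparation, single-end reads of 50 bp were sequenced, per the labels' protocols. TopHat, DESeq and Zv9 are named in the submitters' processing notes. For the counter, annotation and strand use nothing is given in the sources used here. Whether reads of overlapping antisense genes were separated is therefore not known. The values that the authors deposited are a signal of normalized counts per gene with 1 decimal. Whole reads were recovered as multiples of the value of 1 read (0.682 to 3.76), which gave 100% of the values above 0 within 0.06. Totals were 22466764, 4031863 and 9701595 reads in IP replicates 1, 2 and 3 and 10481205, 16048024 and 19804774 in input replicates 1, 2 and 3, which sets the counting error.

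The test was limma 3.58.1 (trend, robust) in R 4.3.3 on all genes at once, two-sided, with group as the only term. Fold changes on the log2(value + 4) scale understate those of low genes. On the recovered reads edgeR 4.0.16 called 588 genes higher and 253 lower; DESeq2 1.42.0 was another alternative. Libraries of the same number deviated together (correlations of 0.294, 0.305 and 0.301 for numbers 1, 2 and 3). Libraries of unlike number gave -0.21 to -0.070. The deviations were taken from means of 3 libraries, which ties these correlations to each other, and the labels do not state a pairing. The main fit and the main exact tests therefore left the numbers out, and pairing was run as an alternative. No 2 libraries of a group agreed within sampling noise. Gene symbols came from the file, then from the identifier table, then from RefSeq synonyms (GRCz12tu). Genes were named by rule: the 4 genes, measured germ plasm names and relatives, called partners with 3 further by p, and the genes nearest in pattern. A gene of the partner list is not reported here. The 4 genes, the lists and the tests were chosen with earlier results of these data known; gdf9 and cnot6b were named after their values were seen. Python 3.11.15 was used for shares, exact tests and figures.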

Additional observations from a re-analysis of the deposited data

How the results depend on the processing

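All 4 genes stayed called in the same direction under every alternative run: edgeR and DESeq2 on recovered reads, both other scalings, pseudocounts of 1 and 16, both other filters, the replicate block and each left-out library. Leaving out 1 library moved the log2 fold change to between 5.57 and 7.03 for nanos3, 5.63 and 6.90 for dazl, 5.49 and 6.34 for dnd and 4.88 and 6.22 for vasa, in each case lowest without IP replicate 2 and highest without IP replicate 3. The largest adjusted p among these was 0.0193, for vasa without IP replicate 1. With replicate number as a block in limma the estimates were unchanged, which the balanced design fixes in advance. The limma adjusted p were then 4.3e-05, 7.12e-06, 4.79e-07 and 4.11e-05 for nanos3, dazl, dnd and vasa. In edgeR the block gave 6.26, 6.17, 5.97 and 5.45 for these genes, against 6.72, 6.49, 6.13 and 5.79 without it. The other settings gave 6.004 to 6.74, 5.98 to 6.50, 5.47 to 6.14 and 5.20 to 5.80, lowest with library size only, where the median of all genes lay at -0.12.

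Small differences changed sign, and the cause was not tested. The nanos3 over dazl difference ran from -0.050 to 0.23 over left-out libraries, and that of dazl over dnd from -0.019 to 0.56. The dnd share of the 4 genes, IP minus input, ran from -1.34 to 0.670 percentage points, above 0 without IP replicate 1 (0.670), IP replicate 2 (0.410) or input replicate 2 (0.108). The dnd over vasa difference ran from 0.12 to 0.76, that of nanos3 over dnd from 0.088 to 0.69, that of dazl over vasa from 0.64 to 0.83 and that of nanos3 over vasa from 0.69 to 0.97. The estimate of pl10 was 0.0042 with DESeq2 and -0.18 to 0.26 with 1 library left out, that of rbm46 was -0.099 with library size only and -0.46 to 0.51, and that of syncrip was -0.0082 with edgeR, -0.031 with edgeR and the replicate block, -0.18 with library size only, -0.043 with TMM scaling and -0.16 to 0.19.

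Sizes of the whole call set moved: 1061 higher and 571 lower with DESeq2, 925 and 467 with the block, and 399 and 101 with no filter beyond 1 read. The planned comparison per kilobase was not run, because no transcript lengths were used here.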
